A study of Homo sapiens with 136 samples.

Results

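The libraries described here are the 16 PANC-1 libraries given an autophagy inhibitor together with sorafenib, dabrafenib, PLX8394 or GDC-0879, which are 4 of the 5 RAF inhibitors in the series. They were chosen by their titles from the 68 PANC-1 libraries, beside which the series holds 68 of AsPC-1, and no measured value entered the choice. PANC-1 and AsPC-1 are established human pancreatic ductal adenocarcinoma lines. Cells were grown for 24 h and then treated for 24 h with hydroxychloroquine or with Compound 19, a Vps34 inhibitor that the titles spell VSP34I, either alone or with a kinase inhibitor, of which there were 14 (5 against RAF, 5 against MEK and 4 against ERK), and messenger RNA was counted by PLATE-Seq, a pooled bulk RNA sequencing method for multi-well plates. The 16 libraries are 8 groups of 2, with each drug given with each autophagy inhibitor once on plate A and once on plate B. The 12 PANC-1 libraries with an autophagy inhibitor alone, 6 for each inhibitor and 3 of these on each plate, were the controls. Every library, controls included, therefore came from cells under autophagy inhibition, and neither untreated cells nor a kinase inhibitor on its own was analysed here. Each kinase inhibitor was used at the concentration that left 80% of the cells viable after 48 h as a single agent. The drugs were thus matched by their effect on viability and not by concentration, and the sources used here do not state the concentrations. Whether the 2 libraries of a group came from separate cultures is not stated either, so p-values measure the spread between these libraries, which may be technical. All values below are from PANC-1 unless AsPC-1 is named.

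RAF kinases, such as ARAF and BRAF, stand between RAS and the kinases MEK and ERK. Active RAS brings RAF molecules together as dimers, which phosphorylate MEK, which phosphorylates ERK, and ERK then drives transcription of genes that include its own negative feedback regulators. Inhibitors designed for BRAF monomers are known to block the cascade in cells with mutant BRAF, and in cells with mutant RAS they can leave ERK active or raise its activity through the drug-free partner of a dimer, which is called paradoxical activation. Sorafenib is a diaryl urea that also inhibits several receptor tyrosine kinases. Dabrafenib is a thiazole with an aryl sulfonamide group and is a clinical inhibitor of mutant BRAF. GDC-0879 is a research inhibitor of BRAF. PLX8394 was developed as an inhibitor that avoids paradoxical activation. RAF709, the fifth RAF inhibitor of the series, binds both partners of a RAF dimer. Autophagy delivers cell contents to the lysosome for breakdown. Hydroxychloroquine acts at the lysosome, and Vps34 is the lipid kinase needed to start forming autophagosomes.

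The 16 libraries held 1995655 to 5871860 counts each and the 12 controls 2392004 to 4977643, with 13739 to 15145 genes detected. Keratin 18 (KRT18) stood at 412.3 to 578.3 CPM (counts scaled to equal, TMM-adjusted library totals) in the controls and 357.2 to 631.4 in the 16 libraries, and the mesenchymal filament vimentin was abundant in all 28, which are known traits of PANC-1. None of the 8 acinar or 6 endothelial markers passed the filter on low counts, nor did more than 2 of 7 fibroblast and 1 of 7 immune markers. One library stood apart. In GDC-0879 plus hydroxychloroquine on plate A, mitochondrial ribosomal RNA took 11.3% of all counts, against 2.12% to 4.95% in the other 27, and calls that rest on it are also given without it. The mean share was 3.76% ± 2.08 (SD, n = 16) with the drugs and 2.70% ± 0.419 (n = 12) in the controls. In permutation tests within plate and autophagy inhibitor (two-sided, exact for single drugs, added after the data were seen, adjusted over 5 comparisons) it was higher pooled (adjusted p = 0.0458), with PLX8394 (3.69%, 0.0458) and with GDC-0879 (5.28%, 0.0391). Without that library the pooled mean was 3.26% (adjusted p = 0.0586) and no comparison passed. The unadjusted p of the pooled permutation test was 0.0275 with that library and 0.0119 without it. For PLX8394, whose test does not contain that library, it was 0.0234 in both settings, and only the adjustment differed. The part of this share in the gene results below was not tested. No test of library total or of the shares of mitochondrial messenger RNA, ribosomal protein or top-10 transcripts passed (20 exact or sampled permutation tests within plate and autophagy inhibitor, two-sided, lowest adjusted p = 0.664). In bulk RNA, fewer cells of a type and less RNA per cell cannot be told apart.

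With the 4 drugs pooled, few genes passed the test. Of 12627 genes tested with edgeR's quasi-likelihood test, 5 passed an adjusted p (Benjamini-Hochberg) of 0.05, all of them lower with the drugs, and VIM, VGF, EIF6 and MAD2L1 were among them. That is 0.0396% of genes. An unadjusted p under 0.05 was reached by 1016 genes, 345 higher (2.73% of all tested) and 671 lower (5.31%). Tested singly against the same 12 controls, sorafenib changed 11 genes (0.0871%), dabrafenib 11 (0.0871%), PLX8394 18 (0.143%) and GDC-0879 53 (0.420%). In the same fit RAF709 changed 1069 genes (8.47%) and the 5 MEK inhibitors pooled changed 2332 (18.5%). These comparisons share the control libraries, so the counts are given side by side only.

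A gene that misses the threshold may still have changed, so each gene's 95% confidence interval was used to say how large a change the data still allow. For the pooled comparison the far end of the interval lay at 0.41 on the log2 scale for the median gene, which is a 1.33-fold change. It lay within 1 log2 unit, a change of 2-fold, for 87.5% of genes and within 0.5 for 61.2%. For single drugs the median far end was 0.62 for sorafenib, 0.61 for dabrafenib, 0.64 for PLX8394 and 0.66 for GDC-0879. An equivalence test (pairs of one-sided tests, adjusted over all genes) placed the change below 1 log2 unit for 11349 genes (89.9%) pooled. The same bound held for 9716 genes (76.9%) with sorafenib, 9772 (77.4%) with dabrafenib, 9618 (76.2%) with PLX8394 and 9507 (75.3%) with GDC-0879. At a bound of 0.5 it held for 7982 genes pooled and for 3301 to 4008 with a single drug. The reach of this bound differed with expression level. Among the 4002 genes with a mean log2 CPM of 5 or more, the pooled interval stayed within 1 log2 unit for 97.1% and the single-drug interval for 93.5% to 94.6%. Among the 2369 genes under a log2 CPM of 2 those shares were 50.4% and 10.1% to 12%. No interval could be computed for 231 genes in the pooled comparison. For most of these weakly expressed genes a change of 2-fold from a single drug was therefore not excluded.

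**Figure D1:**
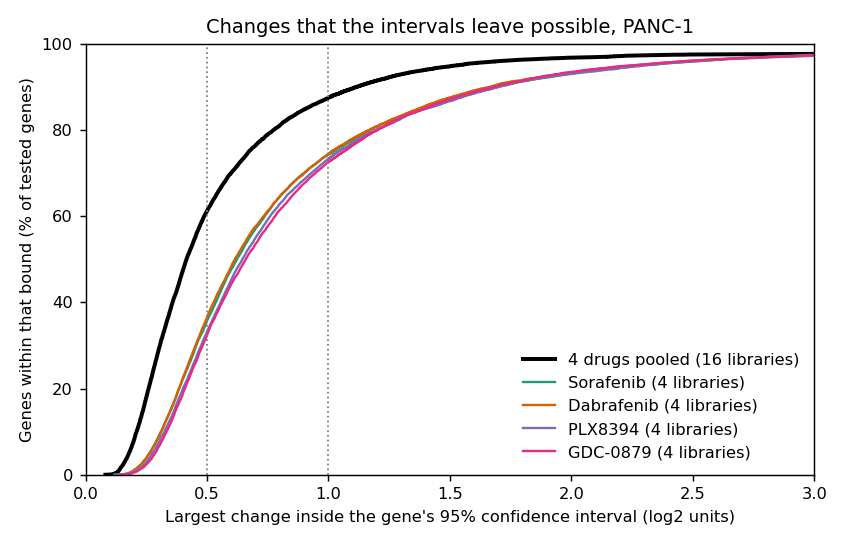
Share of tested genes (vertical axis, % of 12627 genes) whose 95% confidence interval lies within a given change from no effect (horizontal axis, log2 units), for the 4 drugs pooled and for each drug. The pooled curve passes 87.5% at 1 log2 unit, and the single-drug curves pass 72.6% to 74.5%.

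Transcriptional targets of ERK were described first because the drugs act above ERK. Of 10 listed targets 8 were measured, and none passed the test with the drugs pooled (0 called by edgeR, 2 at an unadjusted p under 0.05) or with any single drug. Those 2 pooled values were lower, as were 5.31% of all genes at that level. DESeq2 called none of the targets for which it gave an adjusted p, which were 5 of the 8 in the pooled comparison and 5 to 8 with a single drug. SPRY4, a Sprouty protein that restrains receptor signalling to RAS, is on chromosome 5 (142310427 to 142326455, minus strand, GRCh38). With sorafenib it stood at 44.99 and 44.7 CPM with hydroxychloroquine (plates A and B) and at 23.7 and 47.0 CPM with VSP34I. With dabrafenib the values were 29.4, 48.1, 38.8 and 31.9 CPM in the same order, with PLX8394 17.2, 33.2, 37.9 and 46.7 CPM, and with GDC-0879 15.7, 38.1, 30.5 and 36.8 CPM. Controls ran from 32.6 to 49.7 CPM (median 42.5) with hydroxychloroquine and from 30.1 to 61.2 (median 46.4) with VSP34I. Thus 12 of the 16 libraries lay within the range of the controls given the same autophagy inhibitor and 4 below it, and the pooled log2 fold change was −0.34 (95% interval −0.58 to −0.09, unadjusted p = 0.0074, adjusted p = 0.396). RAF709 libraries held 1.60 to 3.78 CPM of SPRY4, apart from every library of the 4 drugs.

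DUSP6, the phosphatase that inactivates ERK in the cytoplasm, ran from 11.7 to 22.8 CPM in the controls and from 8.89 to 22.0 with the 4 drugs. Its pooled change was −0.25 (−0.66 to 0.16). With RAF709, DUSP6 was at 0 to 3.83 CPM. The pooled changes of SPRY2, a second Sprouty gene, of the ETS factors ETV4 and ETV5, of the pleckstrin-domain protein PHLDA1, of the ephrin receptor EPHA2 and of cyclin D1 (CCND1) were −0.09 (−0.57 to 0.40), −0.27 (−1.01 to 0.48), 0.06 (−0.19 to 0.31), −0.13 (−0.25 to −0.01), 0.16 (−0.17 to 0.49) and 0.11 (−0.12 to 0.34). None of these 6 passed the test either. All 8 targets were bounded below 1 log2 unit in the pooled comparison, and 4 (CCND1, ETV5, PHLDA1 and EPHA2) below 0.5. With each single drug 7 of 8 were bounded below 1, the exception being ETV4, which sits under 8 CPM in these libraries. The median over the targets was −0.11 pooled, against −0.02 over all genes.

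Among the 4 drugs, the lowest changes of single ERK targets were those of SPRY4 and ETV4 with GDC-0879. The median over the measured targets was not lowest there, at −0.09, beside −0.08, −0.14 and −0.09 with sorafenib, dabrafenib and PLX8394. With GDC-0879 SPRY4 was −0.55 (−0.92 to −0.17, unadjusted p = 0.0061, adjusted p = 0.236) and ETV4 −1.64 (−3.17 to −0.11, adjusted p = 0.347). ETV4 was at 0.476, 2.54, 0 and 0.533 CPM in the 4 GDC-0879 libraries. These changes did not pass, and their intervals reach −0.92 and −3.17. Without the library that stands apart they were −0.38 and −1.32 (adjusted p = 1 for both). PLX8394 gave −0.43 (−0.81 to −0.06) for SPRY4 and dabrafenib −0.21 for PHLDA1, both unadjusted p = 0.026. With RAF709, by contrast, SPRY4 was −4.13, DUSP6 −3.58 and PHLDA1 −1.53.

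**Figure D2:**
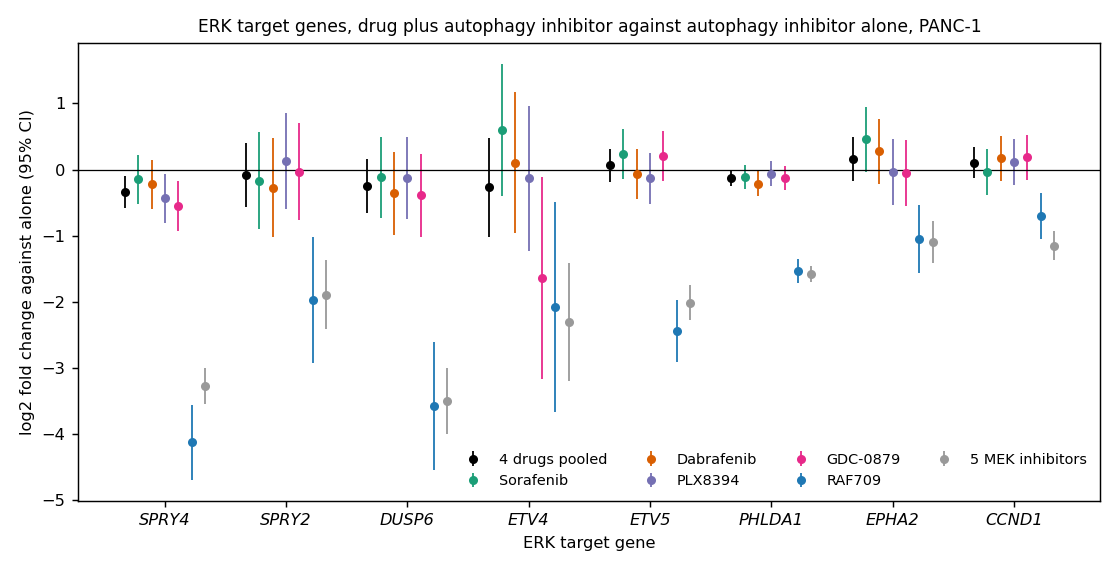
Log2 fold change against autophagy inhibitor alone (points) with its 95% confidence interval (bars) for the 8 measured ERK targets, for the 4 drugs pooled, each drug, RAF709 and the 5 MEK inhibitors pooled. Pooled values lie between −0.34 and 0.16, and those of RAF709 between −4.13 and −0.70.

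A score per library was also computed. The mean log2 CPM of the 8 targets, minus the mean of the controls of the same autophagy inhibitor and plate, ran from −0.16 to 0.17 among the 12 controls. Each control is part of the mean it was set against, and a drug library is not. The spread of the controls is therefore narrower by construction. Among the 16 libraries it ran from −0.44 (GDC-0879 plus hydroxychloroquine, plate A, the library that stands apart) to 0.30 (sorafenib plus VSP34I, plate B), with a mean of −0.068 ± 0.201 (SD, n = 16). By drug the mean over 4 libraries was 0.076 for sorafenib, −0.053 for dabrafenib, −0.063 for PLX8394 and −0.233 for GDC-0879, or −0.163 over the 3 libraries other than the one that stands apart. The drugs did not keep this order in the medians of the fitted changes, which were −0.08, −0.14, −0.09 and −0.09. RAF709 libraries lay at −2.22 to −1.82, those of MEK inhibitors at −2.54 to −1.29 and those of ERK inhibitors at −2.24 to −0.93, with no overlap with the 16. This score is a description and was not tested.

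**Figure D3:**
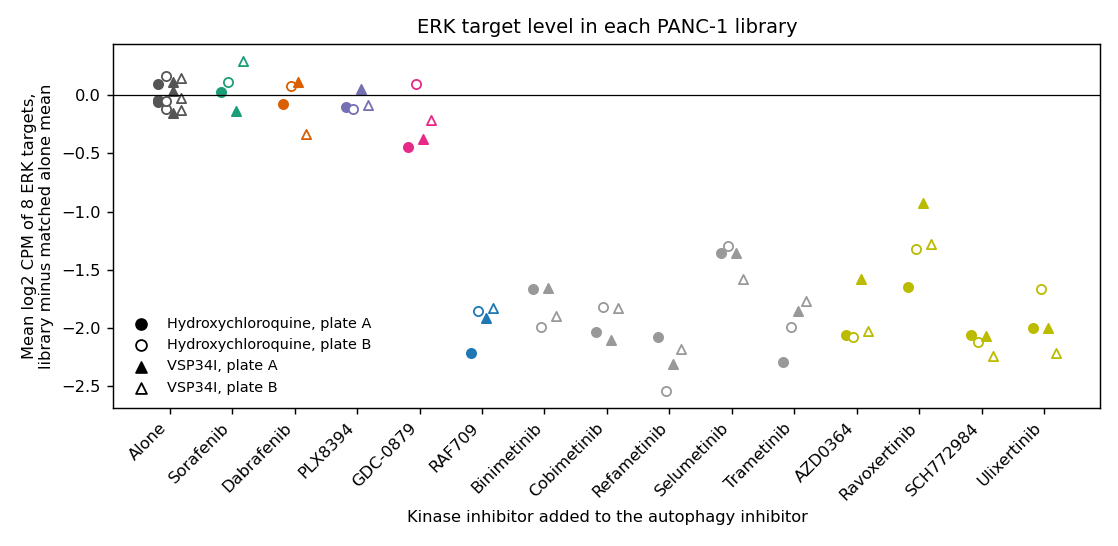
Mean log2 CPM of 8 ERK targets in each PANC-1 library minus the mean of its matched controls (vertical axis), by kinase inhibitor (horizontal axis). Circles are hydroxychloroquine and triangles VSP34I, filled for plate A and open for plate B. Each control is part of the mean it is set against, which narrows the spread of the controls. The 4 drugs lie between −0.44 and 0.30 around the controls, and RAF709, MEK and ERK inhibitors all lie at −0.93 or lower.

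Genes of the cascade itself did not pass the test. Of 16 listed RAS, RAF, MEK, ERK and adaptor genes, 14 were measured and 0 were called in the pooled comparison (0 at an unadjusted p under 0.05) or with any drug, and 13 were bounded below 0.5 log2 units. ARAF was −0.01 (−0.21 to 0.20) and MAPK3 (ERK1) −0.11 (−0.37 to 0.16). BRAF could not be bounded, at −0.72 (−1.51 to 0.06), and its controls with VSP34I alone ran from 16.7 to 287.1 CPM. The lowest single-drug p for the list was that of MAP2K1, the gene of MEK1, with GDC-0879 (−0.37, unadjusted p = 0.0073, adjusted p = 0.246). MAP2K2, the gene of MEK2, was 0.30 higher with dabrafenib (adjusted p = 0.601) and rose by 0.50 with RAF709 (adjusted p = 0.00233).

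The wider lists gave little more. Among 14 measured feedback regulators other than the targets above, none was called (2 at an unadjusted p under 0.05), the lowest p being that of the receptor inhibitor ERRFI1 (−0.25, adjusted p = 0.24). Among 25 measured immediate early genes none was called (4 at an unadjusted p under 0.05), with ATF3 at −0.82 (adjusted p = 0.23) and KLF6 at −0.28 (adjusted p = 0.26). These 4 were all lower. In the pooled comparison 5.31% of all genes were lower and 2.73% higher at that level. The 34 measured ATF4 targets, 32 sterol and lipid genes, 24 NRF2 targets, 43 replication genes, 44 lysosomal genes and 35 autophagy genes gave 0 calls each by edgeR in the pooled comparison, with 4, 2, 4, 1, 3 and 2 genes at an unadjusted p under 0.05. All of the latter were lower except 3 ATF4 targets. Over these lists the medians ran from −0.05 to 0.04, beside −0.02 over all genes. The 46 measured mitotic genes gave 1 call, MAD2L1, and the 15 measured mesenchymal genes gave 2, VIM among them.

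VIM, the intermediate filament vimentin of mesenchymal cells (chromosome 10, 17228259 to 17237593, plus strand), differed between plates in the controls. With hydroxychloroquine alone it was at 2312 to 2946 CPM on plate A and 3132 to 3352 on plate B, and with VSP34I alone at 2103 to 2262 and 2859 to 3134. Read against the controls of the same plate and inhibitor, 14 of the 16 libraries lay below all 3. The exceptions were sorafenib (3035 CPM) and PLX8394 (2904 CPM) with VSP34I on plate B. The pooled change was −0.28 ± 0.047 (−0.37 to −0.18, adjusted p = 0.00178), with −0.46 for GDC-0879 (adjusted p = 3.89e-04) and −0.11, −0.29 and −0.25 for sorafenib, dabrafenib and PLX8394, none of which passed. GDC-0879 plus hydroxychloroquine on plate A held the lowest value, 1306 CPM, and without it the GDC-0879 change was −0.36 (adjusted p = 0.0875). When plate was left out of the model VIM was no longer called (adjusted p = 0.769).

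VGF encodes a secreted neuropeptide precursor (chromosome 7, 101162509 to 101165593, minus strand). Its controls ran from 38.4 to 63.3 CPM with hydroxychloroquine and from 52.0 to 67.96 with VSP34I. Sorafenib libraries held 28.6, 28.6, 29.7 and 36.6 CPM and GDC-0879 libraries 24.8, 34.6, 38.3 and 36.2, all below their controls. Dabrafenib libraries held 33.6, 41.9, 45 and 36.6 CPM and PLX8394 libraries 47.9, 40.6, 43.9 and 52.8, so that 3 of 4 and 1 of 4 lay below. The pooled change was −0.57 ± 0.10 (−0.78 to −0.36, adjusted p = 0.0060). VGF fell by 0.84 with sorafenib (adjusted p = 0.0132) and by 0.72 with GDC-0879 (0.0356), where it did not pass without the library that stands apart (−0.64, adjusted p = 0.638). It was −0.48 and −0.24 with dabrafenib and PLX8394, which did not pass. RAF709 libraries held 5.08 to 16.5 CPM of VGF, a change of −2.48.

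EIF6, a factor of ribosomal subunit maturation (chromosome 20, 35278911 to 35284985, minus strand), was at 458.0 to 690.4 CPM in the 16 libraries. Its controls were at 624.6 to 775.3 CPM with hydroxychloroquine and 654.9 to 891.4 with VSP34I. All 16 libraries lay below the 3 controls of their own plate and inhibitor, while the full ranges overlap. This and every other called gene was picked by a test on these same libraries. Counts of libraries outside the controls therefore only describe such genes, and they were not made over all genes. The change of EIF6 was −0.32 ± 0.060 (−0.44 to −0.19, adjusted p = 0.0120), from −0.21 with dabrafenib to −0.44 with GDC-0879, the one drug with which it was called on its own (adjusted p = 0.0218). That call was lost without the library that stands apart (−0.34, adjusted p = 0.702). MAD2L1, the MAD2 protein of the spindle checkpoint (chromosome 4, 120055608 to 120067074, minus strand), was at 39.2 to 74.0 CPM against 61.0 to 109.4 in the controls. It changed by −0.47 ± 0.091 (−0.65 to −0.28, adjusted p = 0.0123), and 13 of 16 libraries lay below the controls. It was −0.71 with dabrafenib (adjusted p = 0.0198) and −0.62 with GDC-0879 (0.0356), and −0.31 and −0.23 with sorafenib and PLX8394, which did not pass. The dabrafenib call was lost without the plate A library of dabrafenib plus hydroxychloroquine (−0.55, adjusted p = 0.427), and the GDC-0879 call without the library that stands apart (−0.61, 0.509). With RAF709 it was −0.51.

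VIM, VGF and EIF6 were called in each of the 28 fits that left out 1 library, including the one without the library that stands apart. MAD2L1 missed the threshold in 2 of them (adjusted p = 0.0509 without replicate 3 of hydroxychloroquine alone). Leaving out all 4 GDC-0879 libraries ended the calls of VIM, VGF, EIF6 and MAD2L1, whose adjusted p went to 0.207, 0.156, 0.218 and 0.218. None of these 4 passed within plate A or within plate B alone. Without plate in the model EIF6 and MAD2L1 also lost their calls (adjusted p = 0.136 and 0.0542). With the drugs as replicates of one class VIM and MAD2L1 did (0.205 and 0.154), and without sorafenib VGF and without dabrafenib MAD2L1 did (0.118 and 0.233).

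**Figure D4:**
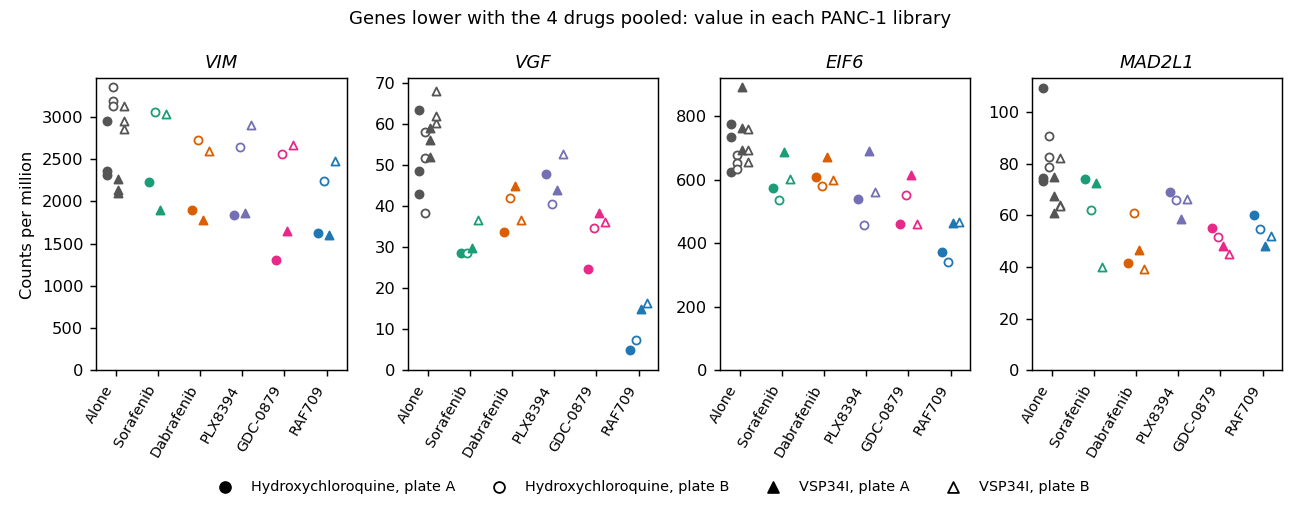
CPM (vertical axis, from 0) of VIM, VGF, EIF6 and MAD2L1 in each PANC-1 library with an autophagy inhibitor alone, each of the 4 drugs or RAF709 (horizontal axis). Circles are hydroxychloroquine and triangles VSP34I, filled for plate A and open for plate B. Most libraries of the 4 drugs lie below the controls of the same plate and inhibitor, and RAF709 lies lowest for VGF.

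Sorafenib lowered TIPARP, an ADP-ribosyltransferase induced by the aryl hydrocarbon receptor that restrains that receptor (chromosome 3, 156673235 to 156706770, plus strand). The 4 sorafenib libraries held 19.1, 16.9, 16.5 and 15.8 CPM. The controls ran from 32.0 to 52.4 CPM (median 36.9) with hydroxychloroquine and from 26.1 to 48.7 (median 43.1) with VSP34I, so the groups did not overlap. The log2 fold change was −1.23 ± 0.18 (−1.59 to −0.86, adjusted p = 3.52e-04), and it passed without any 1 of the 16 libraries (highest adjusted p = 0.0282). The other 3 drugs left TIPARP at 27.1 to 83.8 CPM, with changes of −0.02 (−0.36 to 0.33) for dabrafenib, 0.28 (−0.07 to 0.62) for PLX8394 and 0.02 (−0.32 to 0.37) for GDC-0879. RAF709 gave −0.60 (adjusted p = 0.0275).

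CYP1B1, a cytochrome P450 under the same receptor (chromosome 2, 38066973 to 38109902, minus strand), had its 4 sorafenib values (41.9, 37.0, 46.0 and 47.5 CPM) below the controls (46.3 to 86.0 and 60.2 to 96.6 CPM) in each stratum. Its change of −0.71 (−1.05 to −0.37) did not pass (adjusted p = 0.122). Of 14 listed drug-metabolism genes 7 were measured, and TIPARP was the 1 called. At an unadjusted p under 0.05, 3 of the 7 were lower, TIPARP and CYP1B1 among them, as were 3.52% of all genes. The list median was −0.38, beside −0.02 over all genes. With RAF709, MEK and ERK inhibitors CYP1B1 moved the other way, at 0.65, 1.04 and 0.70.

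Of the other 10 genes called with sorafenib, VGF is given above. CASTOR1, the arginine sensor upstream of mTORC1, was −0.90 (adjusted p = 0.0046), at 17.0, 21.7, 26.01 and 26.2 CPM against 26.7 to 60.5 in the controls. CACNG4, a calcium channel subunit, was 0.90 (adjusted p = 0.0132), at 25.9, 23.2, 20.4 and 20.3 CPM against 6.72 to 16.2. Both had all 4 libraries outside the controls, and both missed the threshold without replicate 1 of sorafenib plus hydroxychloroquine (adjusted p = 0.165 for each). TM4SF1, a tetraspanin-like membrane protein, was −0.37 (0.0208), and the tight junction protein OCLN was 0.77 (0.0229). The calls of TM4SF1, VGF and OCLN were each lost when 1 library was left out (adjusted p up to 0.262, 0.17 and 0.976). The remaining 5 rises, of NR6A1, RDH11, CARD8, DLL3 and MYOG, each came mostly from 1 library, which held over 50% of the summed CPM of the 4: NR6A1 was at 1249 CPM in sorafenib plus VSP34I on plate B, 98.1% of the sum. The ATF4 targets, among which PHGDH and PSAT1 make serine, gave no call with sorafenib, with 10 of 34 higher and 3 lower at an unadjusted p under 0.05, a level that 3.02% of all genes reached as higher and 3.52% as lower.

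Dabrafenib changed 11 genes, 8 higher and 3 lower. ZYX, zyxin of focal adhesions (chromosome 7, 143381080 to 143391111, plus strand), was at 526.6 and 416.7 CPM with hydroxychloroquine and 595.1 and 552.6 with VSP34I. Controls were at 327.7 to 432.0 CPM (median 364.4) and 301.8 to 483.0 (median 409.3). All 4 libraries lay above the 3 controls of the same plate and inhibitor. The change was 0.44 ± 0.077 (adjusted p = 0.0055), and it was lost without dabrafenib plus VSP34I on plate B (0.40, adjusted p = 0.105). CSRP1, a zyxin-binding LIM protein, was at 81.8, 105.1, 101.6 and 98.98 CPM against 53.4 to 86.0 in the controls (0.47, adjusted p = 0.0106). MYL9, a myosin regulatory light chain, was at 39.7, 39.9, 47.6 and 53.4 CPM against 19.1 to 39.9, each above the controls of the same inhibitor (0.72, adjusted p = 0.0074). JUP, plakoglobin of junctions (0.95, adjusted p = 0.0198), and MAP7, a microtubule-binding protein (0.97, 0.0074), also had all 4 dabrafenib libraries above the controls of the same inhibitor.

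Lower with dabrafenib were COL1A1, a chain of type I collagen (−0.68, adjusted p = 0.0198), LXN, the carboxypeptidase inhibitor latexin (−0.64, 0.0074), and MAD2L1. None of the 11 dabrafenib calls survived every fit that left out 1 library. For CSRP1, MYL9, JUP, MAP7, COL1A1 and LXN the adjusted p went to 0.198, 0.212, 0.198, 0.211, 0.259 and 0.186, and the log2 fold changes there stayed between 0.41 and 0.86 for the rises and were −0.59 and −0.54 for the falls. The other 3 calls were RNR1, a mitochondrial ribosomal RNA (0.48), and TTLL5 and ELP2, each led by 1 library (935.4 and 366.7 CPM). RNR1 belongs to the transcripts whose share set the GDC-0879 library above apart.

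PLX8394 lowered MSMO1, the sterol C4-methyl oxidase of cholesterol synthesis (chromosome 4, 165327623 to 165343160, plus strand). It stood at 270.3 and 257.9 CPM with hydroxychloroquine, against 314.7 to 447.2 in the controls, and at 131.3 and 122.0 with VSP34I, against 175.8 to 213.3. All 4 libraries lay below the controls. The change was −0.53 ± 0.099 (adjusted p = 0.0092), lost in 3 of 16 fits without 1 library (adjusted p up to 0.142). It was the 1 call among 32 measured sterol and lipid genes, of which 14 were lower and 0 higher at an unadjusted p under 0.05, where 4.65% of all genes were lower, with a list median of −0.27 beside −0.02 over all genes. ACAT2, which makes the acetoacetyl-CoA that enters the pathway, was at 92.3, 90.8, 47.1 and 45.1 CPM, below its controls (109.4 to 164.7 and 54.5 to 79.9) in all 4 libraries, and did not pass (−0.54, adjusted p = 0.088).

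PLX8394 also lowered PMEPA1, a TGF-beta-induced inhibitor of SMAD signalling (−0.54, adjusted p = 0.0098). It also lowered DEPDC1, a mitotic protein (−0.56, 0.0100), the sulfiredoxin SRXN1 (−1.20, 0.0163) and RAP1GAP2, a GTPase-activating protein of RAP1 (−0.81, 0.0428). SRXN1 had no count in 1 of the 4 libraries (0, 11.4, 21.6 and 24.6 CPM). Of the 12 rises, 9 came mostly from 1 library, and these included the 2 largest: the somatostatin receptor SSTR2 (3.67) was at 366.4 CPM in PLX8394 plus VSP34I on plate A, and MARVELD2 was at 8058 CPM in PLX8394 plus hydroxychloroquine on plate B. Among the rises were MARVELD2 (3.24), DAAM1 (2.65), ADNP (2.15), TAF13 (1.95), BMPR1B (1.86), FAM234B (1.60), TRA2A (1.22), EEA1 (0.91) and MAP4K4 (0.73). No PLX8394 call survived every fit that left out 1 library. In a fit to the 28 libraries alone PLX8394 had 0 calls by edgeR. In a fit to all 68 libraries DESeq2 called 40 genes.

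GDC-0879 had the most calls, 37 higher and 16 lower, and most rested on the library that stands apart. Without that library 6 genes passed, and without its plate B partner 615 did. LPIN3 (5.18) was among the 2 genes called in every such fit. LPIN3, a lipin phosphatidate phosphatase (chromosome 20, 41340920 to 41360582, plus strand), was at 4239 CPM in that library and at 331.2, 76.9 and 8.79 CPM in the other 3, against 1.79 to 13.5 in the controls. The other 64 PANC-1 libraries had a median of 7.24 CPM and reached 301.9. The 4 values of LPIN3 thus spread over a far wider range than those of the controls, and 1 of the 4 lay inside it.

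Also called without that library were STARD9 (2.68), FAM126A (2.74) and SENP5 (2.15), and CADM1 (1.07), which was not called with all libraries. FAM126A and SENP5 were each led by 1 library (2667 and 753.2 CPM, hydroxychloroquine plate B), and STARD9 had a log2 fold change of 0.060 without that plate B library (adjusted p = 0.971). Among the falls with all 4 libraries, EIF6, VIM, VGF, MAD2L1 and TM4SF1 appear above. The interferon-induced membrane protein IFITM3 was at 193.2, 185.1, 166.6 and 138.8 CPM, below its controls (187.4 to 291.9) of the same inhibitor in all 4 (−0.50, adjusted p = 0.0357; 0.638 without that library). ERCC1, a DNA repair endonuclease subunit, was −0.60 (0.0290; 0.520 without it). HLA-E, a nonclassical class I molecule, was 0.77 (0.0144), and it was at 214.7 CPM in that library and at 71.8 to 127.3 in the other 3. The mitotic genes TOP2A (0.69) and KIF4A (1.08) had their highest values there too, at 632.6 and 80.9 CPM, and without it both had an adjusted p of 1. The named rises GPM6A, METTL16, CKAP5 and KIF2A (2.87, 2.80, 1.22 and 1.14) and the falls ZFAND3, PDE6D and SEC14L1 (−0.85, −0.54 and −0.48) were also absent from the 6. The part that this library's composition takes in those calls was not tested beyond leaving it out.

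All 6 pairs of the 4 drugs were compared, 4 libraries against 4, with no control in the contrast. Sorafenib against PLX8394 gave 29 calls (0.230%), sorafenib against GDC-0879 21 (0.166%), dabrafenib against PLX8394 12 (0.0950%), sorafenib against dabrafenib 9 (0.0713%) and dabrafenib against GDC-0879 8 (0.0634%). PLX8394 against GDC-0879 gave 0 by edgeR (0%, with 895 genes at an unadjusted p under 0.05), and DESeq2 called 18. Adjusted over all genes of the 6 pairs together, 60 differences passed (9, 15, 11, 12 and 8 for sorafenib minus dabrafenib, PLX8394 and GDC-0879 and for dabrafenib minus PLX8394 and GDC-0879, and 5 for PLX8394 minus GDC-0879). The last 5 included ZNF202 (0.92), ADNP (2.21), MARVELD2 (3.95) and LPIN3 (−5.02). No ERK target passed in any pair. Without the GDC-0879 library that stands apart, the pairs of sorafenib, dabrafenib and PLX8394 with GDC-0879 gave 1, 3 and 2 calls.

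The diaryl urea sorafenib and the aryl sulfonamide dabrafenib differed in TIPARP (−1.21, −1.65 to −0.77, adjusted p = 0.0062, and 0.0101 over the 6 pairs). They also differed in CASTOR1 (−1.15, 0.0030), in GPRC5A, an orphan receptor (−0.68, 0.0030), in ZYX (−0.48, 0.0213), in COL1A1 (0.83, 0.0213), in CACNG4 (1.10, 0.0413) and in CRABP2, a retinoic acid-binding protein (0.69, 0.0413). GPRC5A was at 78.1, 97.1, 89.9 and 74.2 CPM with sorafenib and 131.9, 167.5, 119.0 and 129.1 with dabrafenib, which did not overlap. Each of these calls was lost when some 1 of the 8 libraries was left out (adjusted p of at least 0.0832). For ERK targets the 2 compounds were not told apart, and the interval of their difference was −0.76 to 1.76 for ETV4. TIPARP was also lower with sorafenib than with PLX8394 (−1.50, adjusted p = 1.91e-04, at most 0.0253 without any 1 library) and than with GDC-0879 (−1.25, 0.0068, up to 0.0735). CYP1B1 was lower with sorafenib than with GDC-0879 (−1.17, 0.0068), and this was lost without the library that stands apart (−0.87, adjusted p = 0.186), where CYP1B1 was at 159 CPM. The other named differences of that pair were NR6A1 (3.09), LOC105372824 (0.67), SPSB1 (0.57) and LPIN3 (−5.96), and each was lost without some 1 library.

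Dabrafenib and PLX8394 differed in PMEPA1 (chromosome 20, 57648392 to 57711536, minus strand). It stood at 159.0, 139.9, 154.7 and 157.5 CPM with dabrafenib and at 88.8, 90.5, 75.8 and 58.8 with PLX8394. Controls were at 122.4 to 151.8 CPM with hydroxychloroquine and 89.4 to 110.6 with VSP34I, so each PLX8394 library lay below and each dabrafenib library above the controls of its own plate and inhibitor. The difference was 0.98 ± 0.12 (0.72 to 1.23, adjusted p = 7.5e-06), and it passed without any 1 of the 8 libraries. LXN (chromosome 3, 158645822 to 158672693, minus strand) differed the other way. It was at 22.4, 39.9, 21.0 and 29.3 CPM with dabrafenib and 44.4, 64.5, 41.1 and 56.8 with PLX8394 (−0.90, −1.18 to −0.62, adjusted p = 4.07e-04, at most 0.0280 without 1 library). ZYX (0.49, 0.0133), ZNF185, an actin-binding LIM protein (0.94, 0.0096), and SMIM14 (−0.67, 0.0194) differed as well, each lost without 1 library.

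Between sorafenib and PLX8394, 2 of 32 sterol and lipid genes were called, ACAT2 (0.83, adjusted p = 0.0112) and MSMO1 (0.60, 0.0156), and 17 were higher with sorafenib at an unadjusted p under 0.05, as were 5.48% of all genes. The list median was 0.39, beside 0.0070 over all genes. Both calls were lost without some 1 library (adjusted p up to 0.11 and 0.103). PMEPA1 (0.71, 0.0056), the antisense RNA PRRT3-AS1 (1.19, 0.0128), whose reads cannot be told apart from those of PRRT3 unless counting used strand, and LXN (−0.72, 0.0112) differed too, and each was lost without some 1 library (adjusted p up to 0.0541, 0.0717 and 0.0968). Dabrafenib and GDC-0879 differed in ZYX (0.71 ± 0.095, adjusted p = 2.0e-05), at 227 to 420 CPM with GDC-0879, and this passed without any 1 library (at most 0.00114). TPM2 and ACTG1, tropomyosin and cytoplasmic actin, were 0.46 (0.0043) and 0.52 (0.0226) higher with dabrafenib, and both were lost without the library that stands apart (adjusted p = 0.271 and 0.461). LPIN3 (−4.90), ADI1 (−1.18) and COL1A1 (−0.78) were lower with dabrafenib than with GDC-0879, and each was lost without some 1 library.

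**Figure D5:**
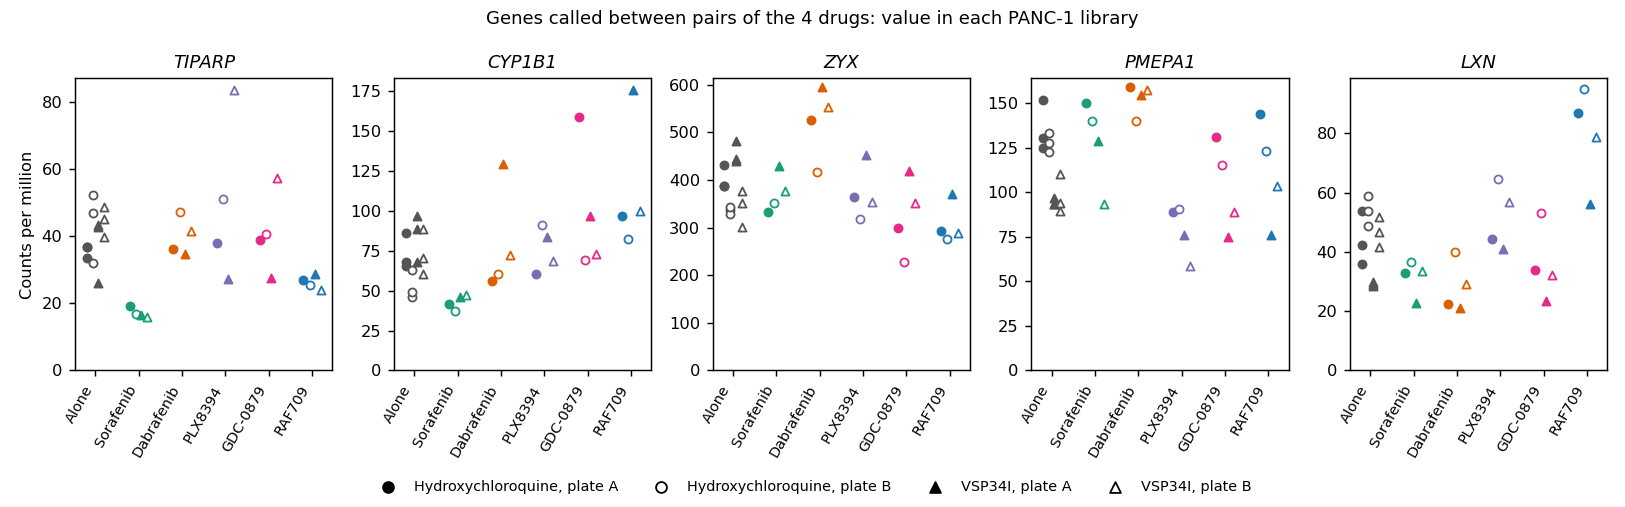
CPM (vertical axis, from 0) of TIPARP, CYP1B1, ZYX, PMEPA1 and LXN in each PANC-1 library with an autophagy inhibitor alone, each of the 4 drugs or RAF709 (horizontal axis). Circles are hydroxychloroquine and triangles VSP34I, filled for plate A and open for plate B. Against the controls of the same plate and inhibitor, sorafenib lies lower for TIPARP and CYP1B1, dabrafenib higher for ZYX and PMEPA1, and PLX8394 lower for PMEPA1.

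The pooled effect of the 4 drugs was not told apart between the autophagy inhibitors. The interaction of drug and autophagy inhibitor had 0 calls by edgeR (0%), with 633 genes at an unadjusted p under 0.05, and DESeq2 called 1, CFAP157. For SPRY4 the separate effects were −0.32 (−0.66 to 0.03) and −0.36 (−0.70 to −0.01).

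Set directly against RAF709, with no control in the contrast, the 4 drugs pooled differed in 834 genes (6.60%), 393 higher and 441 lower. ERK targets accounted for some of them, with 7 of 8 higher and a median difference of 1.85: SPRY4 3.79 (adjusted p = 5.4e-15), DUSP6 3.33 (4.08e-07), ETV5 2.51, SPRY2 1.89, PHLDA1 1.41, EPHA2 1.22 and CCND1 0.81. ETV4 (1.82, adjusted p = 0.137) did not pass. TM4SF1 was 1.47 higher, and SMIM14, the neuronal microtubule protein MAP2 and LXN were −1.41, −1.13 and −1.16. Against the 5 MEK inhibitors pooled, 2286 genes differed (18.1%), 1145 higher and 1141 lower, with all 8 ERK targets higher (median 1.92). The largest in evidence were TM4SF1 (1.36), PHLDA1 (1.45) and TMEM158 (1.95), a RAS-induced membrane protein, and SMIM14 (−1.39), LXN (−1.20) and the cytokine CSF1 (−1.34) on the lower side. Without the library that stands apart the counts were 916 and 2165.

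In AsPC-1 the same 4 drugs pooled changed more genes. In a fit to all libraries of both lines (13960 genes), 747 genes passed in AsPC-1 (5.35%, 269 higher and 478 lower) and 21 in PANC-1 (0.150%, all lower). The difference between lines passed for 112 genes (0.802%), of which 57 were higher and 55 lower in PANC-1 relative to AsPC-1. The 4 drugs did not share this evenly. In AsPC-1 sorafenib had 15 calls, dabrafenib 454, PLX8394 144 and GDC-0879 1655. The line difference of the single drugs passed for 5, 79, 5 and 729 genes in that order. FOSL1, an AP-1 subunit and known ERK target, was −0.79 in AsPC-1 and 0.05 in PANC-1 (difference 0.84, adjusted p = 6.13e-08). The transcriptional repressor subunit DRAP1 was −0.48 and −0.09 (0.39, 1.12e-04). ASNS, asparagine synthetase, rose by 1.12 in AsPC-1 and stood at 0.00 in PANC-1 (−1.12, 1.54e-09). AGR2, a secretory-pathway disulfide isomerase, was 1.01 and −0.08 (−1.09, 1.13e-06), and PSAT1 0.75 and 0.00 (−0.75, 1.12e-04). Of 10 ERK targets measured there, PHLDA1 (−0.43), SPRY4 (−0.48) and DUSP6 (−0.52) passed in AsPC-1, while the difference between lines passed for 0 of 10 in the pooled comparison.

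GDC-0879 gave the clearest contrast between lines. It changed 1655 genes in AsPC-1 (11.9%), and its effect differed between lines for 729 (5.22%). Of the ERK targets 5 were lower in AsPC-1 with GDC-0879 (median −0.84), and 3 differed between lines, among them PHLDA1 (0.85) and CCND1 (1.00). Without the PANC-1 library that stands apart, the line difference passed for 82 genes pooled and for 250 with GDC-0879, 3 ERK targets among them.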

How the data were processed

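The deposited table holds whole-number counts per gene symbol (25435 symbols, 4605 without a count) for all libraries of both lines. Per the submitters' processing notes, kallisto 0.44.0 and GRCh38 were used, and the step from transcripts to genes is not given in the sources used here. Samples of each line were grouped by their treatment labels, and the titles give the plate.

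The counts as deposited were analysed with edgeR 4.0.16 (R 4.3.3). The fit used TMM normalization, filterByExpr by group, the robust quasi-likelihood test and Benjamini-Hochberg adjustment within each comparison at 0.05, on all 68 PANC-1 libraries in 30 groups with plate as a block (12627 genes, 37 residual degrees of freedom). Intervals are Wald intervals from the quasi-likelihood variance. The equivalence test used margins of 1 and 0.5 log2 units. The steps were tested on simulated data. CPM values are counts scaled by the library total and its TMM factor, except in the ERK score, which uses the plain total, and positions are from GENCODE on GRCh38. The median standard error was 0.142 log2 units pooled and 0.218 for a single drug.

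The titles give the plate but no replicate number, and replicates were numbered in accession order. Same-plate libraries shared deviations only in part (median correlation 0.058, above 0.1 in 28.8% of 378 pairs), so libraries were paired through the plate alone. Libraries of a group correlated at 0.929 to 0.967 and no pair agreed within sampling noise (chi-square per gene of at least 7.93).

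Named were ERK targets and pathway genes in every comparison with controls, all genes called for the pooled drugs and for each drug where at most 10 passed in a direction, and otherwise the 10 with the largest change at a mean log2 CPM of 4 or more with up to 3 called members of each list. For the other contrasts, up to 3 called genes per direction were named. CYP1B1, ACAT2, CASTOR1, GPRC5A, ZYX and COL1A1 in comparisons outside that rule, ARHGAP45, CADM1, STARD9, ZNF202, MAP2K2 with RAF709, ERRFI1, ATF3, KLF6, PHGDH, PSAT1 with sorafenib, TM4SF1 pooled, SSTR2 and KRT18 were chosen after their values were seen. The drugs, lists and comparisons were chosen with earlier results of these data known. Some genes that this rule names are not reported here.

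Alternatives were DESeq2 1.42.0 and its size factors, limma 3.58.1 (voom), no replicate block, a filter of 10 counts, the 28 libraries alone, each plate alone, drugs as replicates of a class, and each library or drug left out.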

Additional observations from a re-analysis of the deposited data

Results flagged for a closer look

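In 24 of 133 groups of 4 or 6 libraries 1 value lay far from the others (Dixon's criterion). Chance gives about 1 in 20, but many of these genes were named for a drug because 1 library was extreme, so that rate is no measure for this count. Most were rises in 1 library. The GDC-0879 plus hydroxychloroquine library of plate A held 11.25% mitochondrial ribosomal RNA, and LPIN3 (4239 CPM), TOP2A (632.6), KIF4A (80.92) and CCND1 (544 CPM) were also far from the other 3 GDC-0879 libraries there. Its plate B partner held FAM126A at 2667 CPM, SENP5 at 753.2 and SEC14L1 at 181.2. Sorafenib plus VSP34I on plate B held NR6A1 at 1249 CPM, RDH11 at 972.9, DLL3 at 206.7, CARD8 at 172.6 and VGF at 36.6, and the plate A library held a low SPRY4 of 23.69 CPM. Dabrafenib plus hydroxychloroquine held ELP2 at 366.7 CPM on plate A and TTLL5 at 935.4 on plate B. PLX8394 plus VSP34I on plate A held ADNP at 2179 CPM, TAF13 at 829.7 and FAM234B at 261, and on plate B BMPR1B at 853.8. PLX8394 plus hydroxychloroquine on plate B held MARVELD2 at 8058 CPM, DAAM1 at 3262, TRA2A at 624.5 and MAP4K4 at 152.1.

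The pooled effect differed between PANC-1 and AsPC-1 for 112 genes by the interaction term. Among them were FOSL1 (0.84), DRAP1 (0.39), ASNS (−1.12), AGR2 (−1.09) and PSAT1 (−0.75), given as PANC-1 minus AsPC-1 on the log2 scale.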

How the results depend on the processing

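With no replicate block, that is without plate as a term, the pooled drugs had 2 calls (VGF among them), dabrafenib 4, the pairs sorafenib minus dabrafenib, PLX8394 and GDC-0879 had 3, 17 and 8, dabrafenib minus PLX8394 and GDC-0879 had 6 and 0, PLX8394 minus GDC-0879 had 5, and the line difference had 63. DESeq2 called 21 genes pooled, 27 with sorafenib, 32 with dabrafenib, 40 with PLX8394, 115 with GDC-0879 and 1 for the interaction. For the 6 pairs in the same order it called 22, 85, 166, 30, 32 and 18, and 206 over all 6 together. Keeping every gene with at least 10 counts left 13 calls for sorafenib minus GDC-0879 and 3 for dabrafenib minus GDC-0879. Fitting the 28 libraries alone left 4 with sorafenib, 3 with dabrafenib, 0 with PLX8394 and 18 with GDC-0879. Plate A alone gave 1 pooled (ARHGAP45), 0 with sorafenib, 0 with dabrafenib and 1 with PLX8394, and plate B alone gave 0, 1, 3, 4 and, with GDC-0879, 0. Drugs as replicates of one class gave 3 (VGF and EIF6 among them), and leaving out GDC-0879 gave 1. With a prior count of 0.5 the mean ERK target score of RAF709 was −2.16. The causes were not tested.

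Leaving out 1 library in turn gave 4 to 17 calls pooled, 5 to 14 with sorafenib, 0 to 12 with dabrafenib, 3 to 27 with PLX8394 and 6 to 615 with GDC-0879. For the 6 pairs it gave 2 to 14, 3 to 39, 0 to 644, 3 to 21, 1 to 237 and 0 to 27, and 451 to 916 against RAF709. The extremes came without hydroxychloroquine alone replicate 3 (4) and GDC-0879 plus hydroxychloroquine replicate 2 (17, 615, 644 and 237), GDC-0879 plus hydroxychloroquine replicate 1 (6 and 916), dabrafenib plus VSP34I replicate 2 (0) and RAF709 plus hydroxychloroquine replicate 1 (451). Of single-gene values in those fits 2360 stayed called or stayed uncalled, 371 lost the call, 1 gained a call and 5 called values changed sign. The 2360 include ERK targets that were uncalled throughout. Changes of sign were not counted for values uncalled in the main fit. Signs changed for genes led by 1 library. On plate A alone DAAM1 was −0.52, TRA2A −0.18 and SENP5 −0.093, and on plate B alone ADNP was −0.17 and FAM234B −0.045. Leaving out 1 library at a time, ELP2 ran from −0.00049 (without dabrafenib plus hydroxychloroquine replicate 1) to 1.71. ADNP ran from −0.091 to 2.66 and FAM234B from −0.19 to 2.08, both lowest without PLX8394 plus VSP34I replicate 1. TRA2A ran from −0.089 (without PLX8394 plus hydroxychloroquine replicate 2) to 1.66 and FAM126A from −0.060 (without GDC-0879 plus hydroxychloroquine replicate 2) to 2.74. Genes under a mean log2 CPM of 2, which have the fewest counts, were bounded least often, and the part of depth in this was not tested.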
